A study of Mus musculus with 4 samples.

Results

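The loci of p53 (gene Trp53) and of 9 of its classical target genes were examined for chromatin accessibility in mouse fibroblasts with and without HAT1, the acetyltransferase that acts on newly synthesized histone H4. The targets were Cdkn1a, Mdm2, Ccng1, Bax, Bbc3, Sesn2, Trp53inp1, Zmat3 and Btg2. A site belonged to a gene when it overlapped the gene body or lay within 20 kb of the 5' end of the gene record (GENCODE, mm10). This rule used no measured value, and it took 39 of the 82325 accessible sites. Trp53 had 3 sites, Cdkn1a and Mdm2 had 4 each, Ccng1 had 1, Bax, Bbc3 and Btg2 had 7 each, and Sesn2, Trp53inp1 and Zmat3 had 2 each. No site belonged to more than 1 of the 10 genes.

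Open chromatin was profiled by ATAC-Seq, a method that lets the Tn5 transposase insert adapters into exposed DNA. The 4 libraries came from mouse embryonic fibroblasts (MEFs) of C57bl6 background, 2 from HAT1+/+ lines (WT) and 2 from HAT1-/- lines (KO), with 100000 cells collected for each. The lines were grown without a drug or damaging agent that the labels name, and every line, WT and KO alike, carried SV40 large T antigen, introduced to immortalize early passage cells. Each library was a separate line derived from embryos of its genotype, so differences between lines add to those between genotypes. Large T binds p53, so the values describe p53 loci in cells in which that protein is present, and no library without large T was used here.

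The p53 protein is a transcription factor that is kept scarce in unstressed cells and is stabilized after DNA damage and other stress. It binds DNA as a tetramer at elements made of paired decamers and activates genes that halt the cell cycle, drive apoptosis, repair DNA or limit p53 itself. Large T holds p53 in a complex that cannot activate these genes, which is one way in which it lets fibroblasts escape senescence.

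Values were normalized counts, the reads of a site after scaling of each library and rounding to whole numbers. Library totals lay between 8008069 and 8516263 and medians between 51 and 53. From the steps that the scaling leaves in low values, the WT libraries were estimated to hold about 9430000 (replicate 1) and 11400000 reads (replicate 2) within sites and the KO libraries 7830000 and 5670000, so counting error was larger in both KO libraries. All 8 fibroblast genes checked had a promoter site, with mean values from 78.75 to 866.25. A promoter site was also listed for 3 of 4 epithelial genes (20.5 to 93.5), 3 of 3 endothelial genes (34 to 73.5) and 2 of 3 neural genes (46.5 to 63). Of 3 haematopoietic genes, Cd68 had one (179.75), while Ptprc and Spi1 had none listed. The 2 Hat1 sites had 390, 384, 438 and 368, and 37, 19, 28 and 36 normalized counts in WT replicates 1 and 2 and KO replicates 1 and 2, and gave no check of the genotype.

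Sequences that match the p53 element are shown first because they are where p53 would be looked for at these genes. The p53 consensus of 20 bases, formed by 2 abutting decamers, was searched for in mm10 with the C and G of both cores required and up to 3 mismatches at the other 16 positions. The consensus is its own reverse complement, so both strands were covered. Within the 413 kb of the 10 loci, 40 matches were found, of which 10 lay in accessible sites and 30 outside. Sites made up 5.75% of this sequence. At most 1 mismatch was found in 8 matches, and these fell in Ccng1, Cdkn1a, Mdm2 and Zmat3. They are printed 5′ to 3′ on the strand of the gene, with the bases that match the consensus in capitals and a mismatch in lower case.
Ccng1 upstream (chr11:40755462-40755481, minus strand, 160 bp before the 5' end): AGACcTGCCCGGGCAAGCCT
Ccng1 intronic (chr11:40754936-40754955, minus strand): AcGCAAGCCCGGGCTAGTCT
Cdkn1a distal (chr17:29079039-29079058, plus strand, 11.9 kb upstream): AGGCAAGCCCGGGCAAGgCC
Cdkn1a proximal (chr17:29090928-29090947, plus strand, 39 bp before the 5' end): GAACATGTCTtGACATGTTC
Mdm2 upstream (chr10:117717736-117717755, minus strand, 6987 bp before the 5' end): AAACATGTaCAAACATGTCC
Mdm2 intronic (chr10:117699921-117699940, minus strand): GGACTTGTCCAGcCAAGTTT
Zmat3 exonic (chr3:32364331-32364350, minus strand, 1674 bp into the gene): AAACAAGCCCAGGCATGTCT
Zmat3 upstream (chr3:32370151-32370170, minus strand): GAGCAAGTCTGGGCTTGTTa
Both Ccng1 matches, the distal Cdkn1a match and the upstream Mdm2 match lay inside accessible sites. The other 4 lay outside any listed site, at 2543 bp (Cdkn1a proximal), 9984 bp (Mdm2 intronic), 523 bp (Zmat3 exonic) and 2257 bp (Zmat3 upstream) from the nearest one. The Zmat3 exonic match was the only one of the 40 with 0 mismatches.

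To show the surroundings, 1 match of each of these 4 genes is given with 100 bases of reference sequence on the gene strand. They are the Ccng1 upstream, Cdkn1a proximal, Mdm2 upstream and Zmat3 exonic matches, here wholly in capitals.
Ccng1 (chr11:40755422-40755521): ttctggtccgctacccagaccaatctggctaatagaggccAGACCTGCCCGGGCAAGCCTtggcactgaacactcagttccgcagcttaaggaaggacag
Cdkn1a (chr17:29090871-29090970): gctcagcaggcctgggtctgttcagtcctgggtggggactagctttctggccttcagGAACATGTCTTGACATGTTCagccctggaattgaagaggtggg
Mdm2 (chr10:117717696-117717795): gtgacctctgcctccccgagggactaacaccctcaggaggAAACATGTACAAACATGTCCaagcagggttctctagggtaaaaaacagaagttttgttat
Zmat3 (chr3:32364291-32364390): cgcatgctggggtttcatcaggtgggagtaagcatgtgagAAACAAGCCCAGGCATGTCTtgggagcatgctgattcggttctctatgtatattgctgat
In the Mdm2 stretch, a further match with 2 mismatches overlapped the one shown.

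Counted by site, a match was present in 8 of the 39 sites of the p53 genes (20.5%), against 2.74% of all sites and 3.22% of sites at promoters. In the 400 bases around the centre, a length that was the same for each site, the shares were 15.4% (6 sites), 2.15% and 1.99%. With at most 1 mismatch, 3 of the 39 sites (7.69%) and 0.143% of all sites held a match. The sites with a match belonged to Ccng1, Cdkn1a, Mdm2, Bax and Trp53. The genes were chosen as classical p53 targets, so a larger share than over all sites cannot be read as a finding of these data. A match is a description of the letters and not a bound element.

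The listed sites of the p53 genes had signal in all 4 libraries, and none passed the test for a difference between KO and WT. The rule took only sites listed as accessible, so signal at them was given in advance. The 39 sites had values from 18 to 880 normalized counts, and the median of their means over the 4 libraries was 176, against 52 for all sites. Per kb, the median was 326 against 119, and 34 of the 39 sites were at or above the median value of all sites. The GC content of the central 400 bases had a median of 57.5%, with 17 CpG, against 48.0% and 5 for all sites. A transcription start of some gene lay within 3 kb of 66.7% of the 39 sites, against 35.4% of all sites.

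In limma on log2(value + 1), fitted over all sites, a site was called when its unadjusted p was under 0.01 and its log2 fold change was 1 or more in size. Of the 39 sites, 0 were called, where 0.373% of all sites were (0.302% lower and 0.0705% higher in KO). At an adjusted p under 0.05 the count was 0 for the 39 sites and 0 for all sites, the share of all sites being 0.0%. At an unadjusted p under 0.05 it was 1 of 39, against 3.13% of all sites. Both KO libraries were below both WT libraries at 5 of the 39 sites and above them at 8 (12.8% and 20.5%). These shares were 14.3% and 14.6% for all sites and 10.2% and 19.6% for sites of higher signal, and at the other 26 the genotypes overlapped. The counts that do not overlap depended on scaling, with 7 lower and 3 higher under equal library totals and 8 lower and 3 higher under quantile normalization. With 2 libraries against 2, no exact permutation test can give a p under 0.333.

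The fold changes of the 39 sites were small. Their median log2 fold change, KO against WT, was 0.07, against 0.01 for all sites and 0.06 for sites of higher signal, and 25 of the 39 were above 0 (64.1%, against 50.7% of all sites and 59.4% of sites of higher signal). The lowest was -0.61, at Btg2, and the highest 0.36, at Bbc3. The median of the absolute log2 fold change was 0.13, against 0.25 for all sites, 0.19 for sites at promoters and 0.19 for sites of higher signal. An absolute value under 0.2 was found at 29 sites (74.4%), against 41.6% of all sites, 52.0% at promoters and 52.7% at higher signal. A value above 0.58 was found at 1 site (2.56%), against 18.8%, 11.8% and 8.58%. The 39 were strong sites, so the values for promoters and for higher signal are the closer reference. Both were still weaker, with median values of 95.6 and 119 against 176 for the 39 sites. Signal was therefore not matched, and the smaller changes cannot be read as a trait of the p53 loci. The 95% interval of the difference lay wholly within a log2 fold change of -1 to 1 for 32 of the 39 sites, and it held 0 for 38. A p above the threshold does not show that accessibility was the same, and the intervals give the size that these libraries leave possible.

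**Figure D1:**
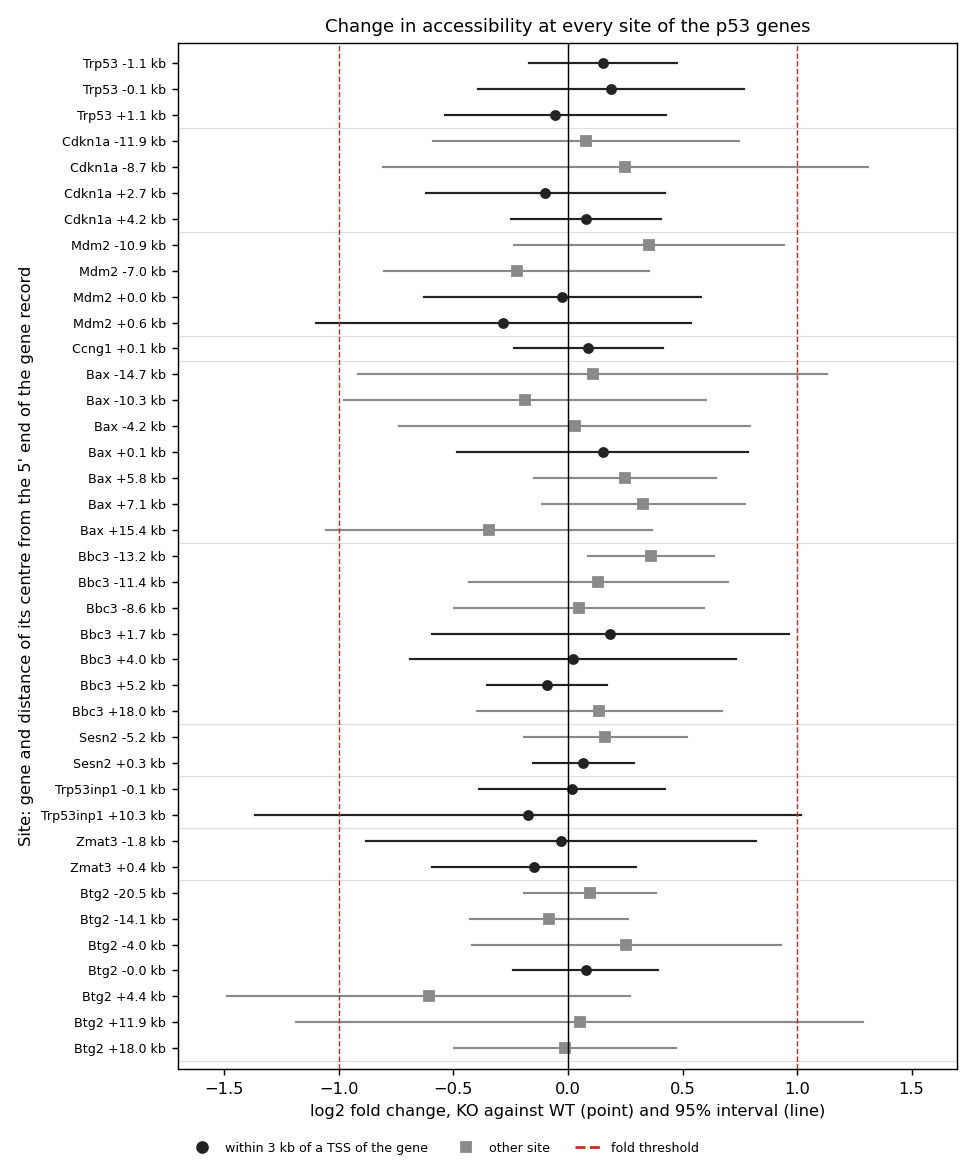
Log2 fold change in accessibility, KO against WT, at each of the 39 sites of Trp53 and its 9 targets, with the 95% interval from limma, and dashed lines at the fold threshold of 1. Sites are named by gene and by the distance of their centre from the 5' end of the gene record. Points lie between -0.61 and 0.36, and the interval of 1 site, 13.2 kb upstream of Bbc3, does not hold 0.

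Lines of the same genotype also differed from each other. Over the 39 sites, WT replicates 1 and 2 had a median absolute log2 difference of 0.23 and KO replicates 1 and 2 one of 0.21, beside a median KO to WT change of 0.13. The last value sets means of 2 libraries against each other and is smaller than a gap between single libraries by construction. For all sites the corresponding values were 0.34, 0.43 and 0.25. The KO to WT change was larger than both within-genotype gaps at 7 of the 39 sites (17.9%, against 18.9% of all sites). At 25 of the 39 sites (64.1%) WT replicate 1 was above WT replicate 2. This share was 49.1% of all sites, 57.4% of sites at promoters and 49.1% of sites of higher signal. The median difference between these libraries was 0.20 at the 39 sites, against 0.00, 0.06 and 0.00.

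Trp53 itself, on chromosome 11 from 69580359 to 69591873 (plus strand), shares its upstream region with Wrap53, which is transcribed the other way. All 3 Trp53 sites lay within 3 kb of a Wrap53 transcript start, so their values cannot be assigned to Trp53 alone. The strongest promoter site of Trp53 (chr11:69578931-69579602, centred 1.09 kb upstream) had 348 and 394 normalized counts in WT and 415 and 409 in KO. Both KO values were above both WT values. The log2 fold change was 0.15 (SE 0.13, 95% interval -0.17 to 0.48, limma unadjusted p = 0.293), which did not pass the test. It fell to 0.02 under quantile normalization and ran from 0.06 (without WT replicate 1) to 0.24 (without WT replicate 2) when 1 library was left out. At 583 normalized counts per kb this site stood at the 98th percentile of sites at promoters, the highest of the 10 genes' promoter sites by this measure. The site over the gene's 5' end (chr11:69580057-69580491), in a UTR and with a p53 motif match of 3 mismatches, had 185 and 144 in WT and 169 and 205 in KO, so the genotypes overlapped. The intronic site had 236 and 199 in WT and 197 and 221 in KO, again with overlap.

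**Figure D2:**
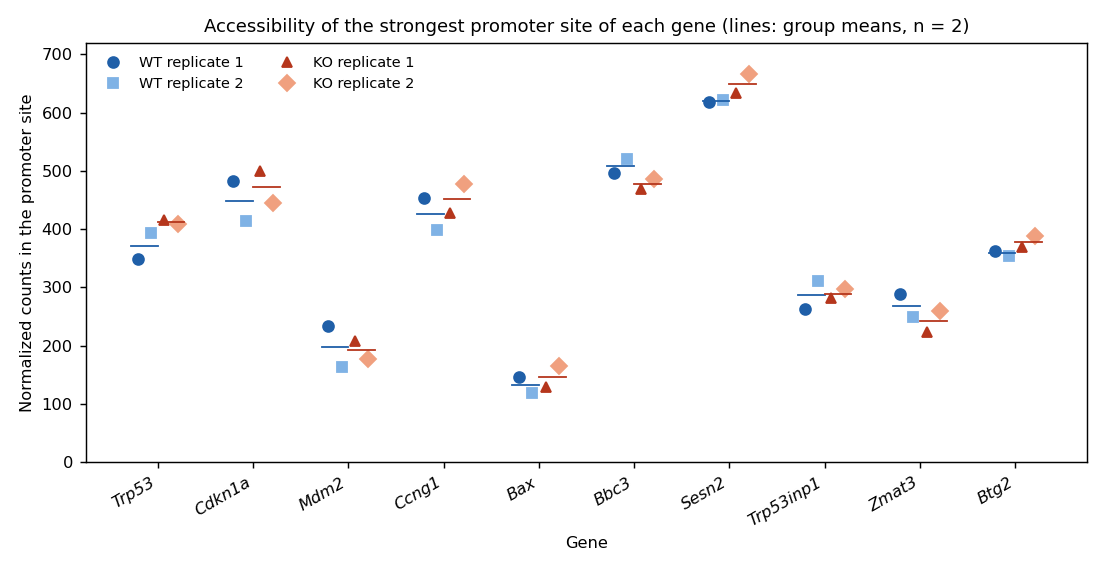
Normalized counts in the strongest promoter site of Trp53 and of each target, 1 point per library and a line at the mean of each genotype (n = 2). Both KO points lie above both WT points for Trp53, Sesn2 and Btg2, both lie below for Bbc3, and the genotypes overlap for the other 6 genes. Over all sites at promoters, both KO values were above both WT values at 16.9% and below them at 14.8%.

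Mdm2 encodes the ubiquitin ligase that marks p53 for degradation and is a p53 target in turn, so it is the arm of the pathway that limits p53. The gene lies on chromosome 10 from 117688875 to 117710758 (minus strand). Its promoter site (chr10:117710412-117711063) had 234 and 163 normalized counts in WT and 208 and 177 in KO, with both KO values between the WT values. The log2 fold change was -0.03 (SE 0.25, 95% interval -0.63 to 0.58, limma unadjusted p = 0.922). The site 0.641 kb into the gene (chr10:117709924-117710310, UTR, p53 motif match) had 168 and 96 in WT and 111 and 98 in KO. Its log2 fold change of -0.28 (95% interval -1.10 to 0.54) rested on WT replicate 1, without which it was 0.12. The p53 protein is known to activate Mdm2 from an internal promoter close behind the first exon, and the match in this site has 3 mismatches.
Mdm2 internal (chr10:117710105-117710124, minus strand, 644 bp into the gene): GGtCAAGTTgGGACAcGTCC

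Upstream of Mdm2, the site that holds the printed match (chr10:117717527-117718098, centred 7.05 kb upstream) had 197 and 159 in WT and 166 and 138 in KO, which overlapped (limma unadjusted p = 0.381). The site 10.9 kb upstream (chr10:117721437-117721883) had 117 and 110 in WT and 135 and 156 in KO. It had the largest change of the gene's sites, a log2 fold change of 0.35 (SE 0.24, 95% interval -0.24 to 0.94, limma unadjusted p = 0.195). The 4 Mdm2 sites thus went both ways, 3 with a fold change below 0 and 1 above, and none passed the test.

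Among the genes of cell cycle arrest, Cdkn1a encodes p21, the inhibitor of cyclin-dependent kinases through which p53 halts cells. It lies on chromosome 17 from 29090976 to 29100727 (plus strand) and its transcripts start at several places. The strongest promoter site (chr17:29094461-29095873, centred 4.19 kb past the 5' end, intronic) had 482 and 414 normalized counts in WT and 500 and 445 in KO. The log2 fold change was 0.08 (SE 0.14, 95% interval -0.25 to 0.41, limma unadjusted p = 0.583), and the genotypes overlapped. The neighbouring site (chr17:29093490-29093942, UTR) had 221 and 179 in WT and 175 and 197 in KO, a log2 fold change of -0.10. The stretch around the 5' end of the gene record, with the proximal match, held no listed site. A transcript start of Cdkn1a lay within the UTR site, which is centred 2.74 kb past that 5' end. The match is thus proximal only to the 5' end of the gene record.

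Upstream of Cdkn1a lies Trp53cor1, a noncoding RNA gene, and the distal match falls in a site at its promoter. That site (chr17:29078760-29079295) had 106 and 105 normalized counts in WT and 97 and 128 in KO. The KO libraries lay on either side of the WT ones, with a log2 fold change of 0.08 (95% interval -0.59 to 0.75, limma unadjusted p = 0.786), which was -0.12 without KO replicate 2. The fourth site of the locus had 44 and 24 in WT and 42 and 36 in KO.

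Ccng1 encodes cyclin G1, a p53 target that recruits a phosphatase to Mdm2. Its single site (chr11:40754752-40755677) covers the 5' end of the gene, which runs from 40748552 to 40755311 on the minus strand, and it held both printed matches. It had 453 and 398 normalized counts in WT and 427 and 478 in KO, so WT replicate 1 lay between the KO libraries. The log2 fold change was 0.09 (SE 0.13, 95% interval -0.24 to 0.41, limma unadjusted p = 0.529). Per kb, this site was at the 94.3 percentile of sites at promoters, with 474 normalized counts.

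**Figure D3:**
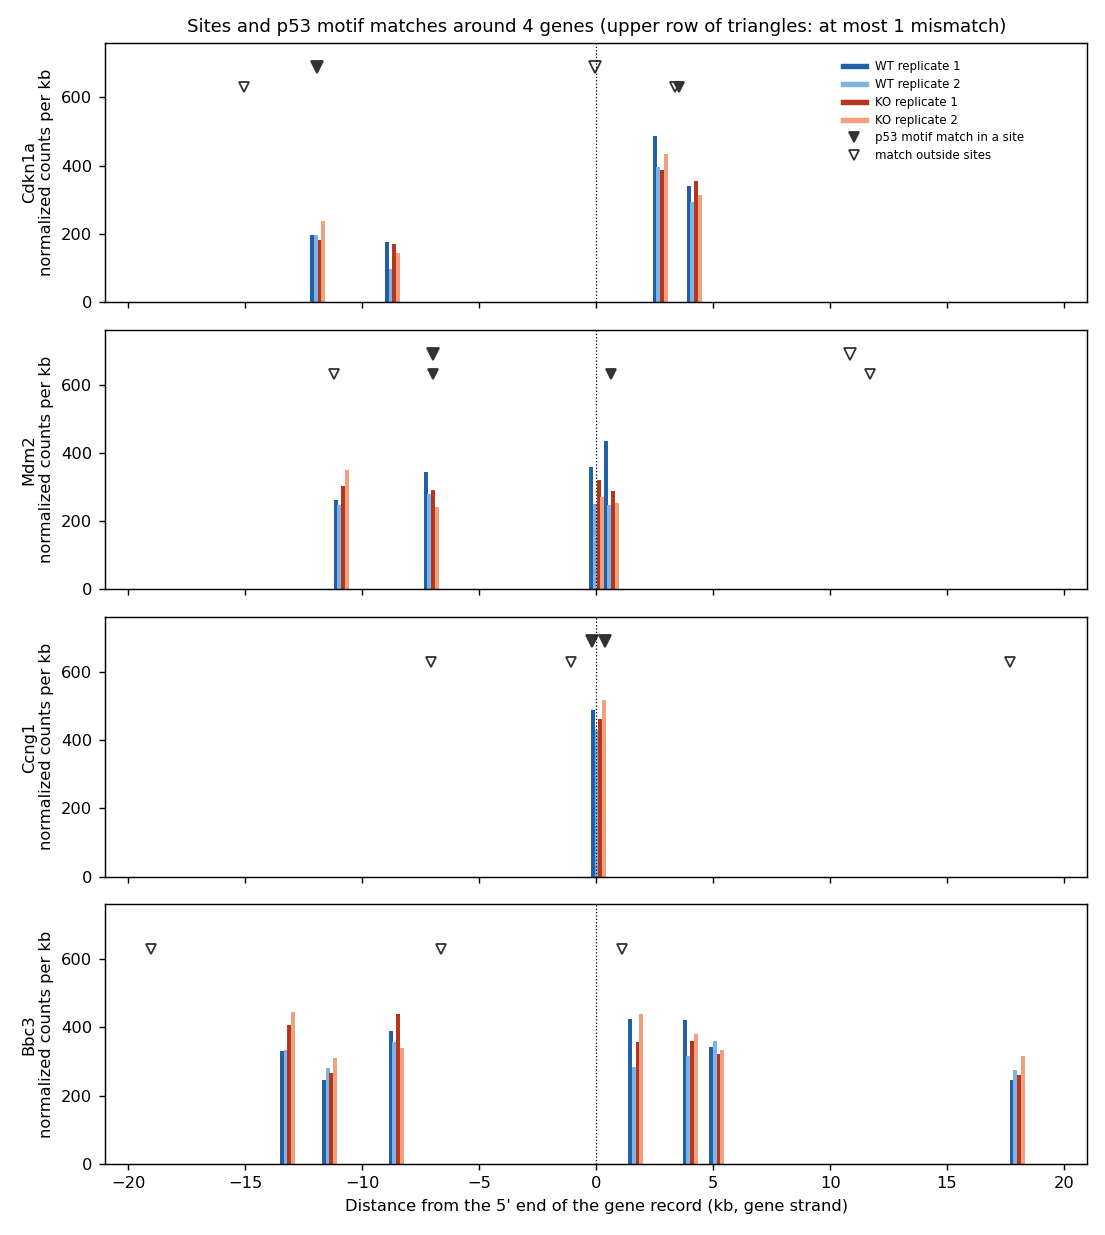
Accessible sites and p53 motif matches around Cdkn1a, Mdm2, Ccng1 and Bbc3. Bars give the normalized counts per kb in each of the 4 libraries (side by side at the site's centre, not the site's width), and triangles mark motif matches in sites (filled) or outside them (open), with the upper row for at most 1 mismatch. The match next to the 5' end of Cdkn1a lies away from any bar, while both upper-row matches of Ccng1 lie under its only site.

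Btg2, an antiproliferative gene of the BTG and TOB family, lies on chromosome 1 from 134075170 to 134079120 (minus strand). Its promoter site (chr1:134078786-134079552) had 363 and 354 normalized counts in WT and 369 and 388 in KO. Both KO values were higher, by a log2 fold change of 0.08 (SE 0.13, 95% interval -0.24 to 0.39, limma unadjusted p = 0.573). The weak site just past the gene's 3' end (chr1:134074640-134074848) had 81 and 62 in WT and 38 and 56 in KO, the largest change of the 39 sites. Its log2 fold change was -0.61 (SE 0.36, 95% interval -1.49 to 0.27, limma unadjusted p = 0.143), and ran from -0.88 to -0.33 when 1 library was left out. The site with the highest values of the 39 (chr1:134098986-134100287), with 702 and 841 in WT and 880 and 767 in KO, lay 19.9 kb from the Btg2 start by its nearer edge, just inside the rule. The nearest site left out of any locus was 20.5 kb from the Mdm2 start and had 47 and 47 in WT and 48 and 36 in KO.

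Among the genes of apoptosis, Bax encodes a pore-forming protein of the mitochondrial outer membrane. It lies on chromosome 7 from 45461697 to 45466898 (minus strand), close to Ftl1, which encodes the ferritin light chain. The Bax promoter site (chr7:45466389-45467121), with a p53 motif match of 2 mismatches in the UTR, had 146 and 118 normalized counts in WT and 129 and 165 in KO. The genotypes overlapped, with a log2 fold change of 0.15 (SE 0.26, 95% interval -0.48 to 0.79, limma unadjusted p = 0.583). At 190 normalized counts per kb it stood at the 52.6 percentile of sites at promoters, and with Zmat3 (169 per kb, the 46.7 percentile) it was the least accessible of the 10 promoter sites on this scale.

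The 2 sites at the Ftl1 promoter were within reach of the Bax rule. The one with a p53 motif match (chr7:45460749-45461373) had 327 and 354 in WT and 359 and 456 in KO, and the other (chr7:45459519-45460140) had 297 and 335 in WT and 344 and 457 in KO. In both, the KO values were above the WT values and KO replicate 2 was highest, with log2 fold changes of 0.25 (limma unadjusted p = 0.177) and 0.33 (limma unadjusted p = 0.119). At the Gys1 promoter, 15.4 kb from the Bax start, values of 110 and 91 in WT and 87 and 71 in KO gave the opposite order, a log2 fold change of -0.34 (95% interval -1.06 to 0.37). The other 3 Bax sites had from 25 to 62 normalized counts in every library.

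Bbc3 encodes PUMA, a BH3-only protein that releases Bax and its relatives from their inhibitors. It lies on chromosome 7 from 16308393 to 16318205 (plus strand). The site centred 13.2 kb upstream (chr7:16294540-16295824, outside any promoter) had 425 and 427 normalized counts in WT and 524 and 573 in KO. The WT libraries were nearly equal and both KO libraries were higher, with a log2 fold change of 0.36 (SE 0.11, 95% interval 0.09 to 0.64, or a fold of 1.06 to 1.55). No other of the 39 sites had an unadjusted p under 0.05. Here limma gave an unadjusted p = 0.0174 and an adjusted p = 1, and the fold threshold was not reached. Under quantile normalization the log2 fold change was 0.21 (limma unadjusted p = 0.1), and without the intensity trend the limma unadjusted p was 0.206. When 1 library was left out it ran from 0.30 to 0.43, with a limma unadjusted p from 0.0195 to 0.0879.

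The strongest promoter site of Bbc3 (chr7:16312816-16314266, exonic) went the other way, with 497 and 521 in WT and 469 and 486 in KO. Its log2 fold change was -0.09 (SE 0.11, 95% interval -0.35 to 0.17, limma unadjusted p = 0.427). In the other 5 Bbc3 sites the genotypes overlapped, with values from 72 to 212. No Bbc3 site held a p53 motif match under the rule used. A match of 3 mismatches (chr7:16309486-16309505) lay 455 bp from the nearest site.

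Sesn2 and Trp53inp1 act in the stress responses that p53 controls. Sesn2 encodes sestrin 2, an inhibitor of mTORC1 signalling, and its promoter site (chr4:132509556-132510836) had 618 and 621 normalized counts in WT and 633 and 666 in KO. The difference was the most precise of the 39, with a log2 fold change of 0.07 (SE 0.09, 95% interval -0.15 to 0.29, limma unadjusted p = 0.481). Its direction turned under equal totals (-0.0007) and under quantile normalization (-0.12). The second Sesn2 site, 5.16 kb upstream (chr4:132515356-132515963), had 282 and 304 in WT and 328 in each KO library, a log2 fold change of 0.16 (95% interval -0.19 to 0.52).

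Trp53inp1 encodes a nuclear protein that takes part in p53-dependent cell death and in autophagy. Its promoter site (chr4:11155904-11156788) had 263 and 311 in WT and 281 and 298 in KO, with both KO values between the WT values. The log2 fold change was 0.02 (SE 0.17, 95% interval -0.39 to 0.42, limma unadjusted p = 0.923). An intronic site 10.3 kb into the gene was the weakest of the 39, with 22 and 19 in WT and 18 in each KO library.

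Zmat3 encodes a zinc finger protein that binds RNA and influences splicing and RNA stability. The gene lies on chromosome 3 from 32334792 to 32366014 (minus strand), and its promoter site (chr3:32364873-32366381) had 288 and 249 in WT and 224 and 260 in KO. The genotypes overlapped, with a log2 fold change of -0.15 (SE 0.18, 95% interval -0.59 to 0.30, limma unadjusted p = 0.446). Beside Mdm2 and Bbc3 it was the third gene whose promoter site had a fold change below 0. The match without a mismatch lay 523 bp outside this site, on the side of the gene body.

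Sites with a p53 motif match were compared with those without, as a description over few sites. In the 8 with a match, both KO values were above both WT values at 1 site and below them at 0, and the median log2 fold change was 0.08. In the 31 without, the counts were 7 and 5, and the median was 0.05. The shares for all sites were 14.6% and 14.3%, and for sites at promoters 16.9% and 14.8%. At the 18 sites within 3 kb of a start of the gene itself, the median absolute log2 fold change was 0.09, with 3 sites higher and 2 lower in both KO libraries, and at the other 21 it was 0.16, with 5 and 3.

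Summing the sites of each locus gave 1 value per gene, which was fitted with limma over 17798 protein-coding genes. Of the 10 p53 genes, 0 were called, against 0.331% of all genes (0.326% lower and 0.00562% higher in KO). None had an unadjusted p under 0.05, against 4.15% of all genes, and none had an adjusted p under 0.05, against 0.0%. Both KO sums were above both WT sums in 5 genes (Trp53, Bax, Bbc3, Sesn2 and Btg2) and below them in 0, beside 23.3% and 11.4% of all genes. Under equal library totals the log2 fold changes of these 5 were 0.03, 0.11, 0.05, 0.03 and -0.03, in that order. Btg2 thus no longer had both KO sums above both WT sums, so the count depended on scaling. The values of the others fell as well, and whether their KO sums stayed above both WT sums was not counted. The 5 of 10 genes can therefore not be read as an excess over the 23.3% of all genes. The fold change was above 0 in 8 of 10, against 60.6% of all genes, and the median was 0.07 against 0.05. The median absolute log2 fold change was 0.09 against 0.13.

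The sums of the p53 genes differed by at most 0.18 on the log2 scale. Bax had the highest value, with 1018 and 1050 in WT and 1056 and 1294 in KO, a log2 fold change of 0.18 (95% interval -0.14 to 0.50), to which the Ftl1 sites contribute. Without KO replicate 2 the Bax value was 0.03, under those of Bbc3 (0.08), Sesn2 (0.07) and Trp53 (0.05) in the same fit. Without KO replicate 1 it was 0.32. Without sites at promoters of other protein-coding genes it was 0.117, just under Bbc3 (0.121). The place of Bax thus rested on KO replicate 2 and on those sites. Trp53 had 769 and 737 in WT and 781 and 835 in KO, a log2 fold change of 0.10 (95% interval -0.17 to 0.37). All of its sites also lay at the Wrap53 promoter. Cdkn1a had 853 and 722 in WT and 814 and 806 in KO (0.05, 95% interval -0.26 to 0.35), and its direction turned under equal totals (-0.02) and quantile normalization (-0.05). Zmat3 had the lowest value, with 337 and 289 in WT and 264 and 307 in KO (-0.13, 95% interval -0.55 to 0.29). All 10 intervals lay within -0.55 and 0.50.

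The wider pathway was described with 36 further genes, 25 targets and 11 regulators or relatives of p53. At the gene level 0 of the 36 were called, against 0.331% of all genes, and 27 had a fold change above 0 (75.0%, against 60.6%). In both KO libraries 10 were higher (27.8%, against 23.3% of all genes) and 2 lower (5.56%, against 11.4%), and the median was 0.08 against 0.05. An unadjusted p under 0.05 was found in 1 of the 36 genes, against 4.15% of all genes. That gene was Chek2, which encodes a kinase that phosphorylates p53 after DNA damage. It had 721 and 713 in WT and 859 and 894 in KO, a log2 fold change of 0.29 (95% interval 0.03 to 0.55, limma unadjusted p = 0.034). Chek2 was named after its value was seen. The 25 targets had a median of 0.08, with 5 of 25 higher and 2 lower in both KO libraries, and the 11 regulators a median of 0.13, with 5 and 0. The shares for all genes were again 23.3% and 11.4%.

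By the rule for naming, the largest values below 0 were at Eda2r and Perp and the largest above 0 at Ddit4 and Fas, and none was called. Eda2r, which encodes a receptor for ectodysplasin A2 and lies on X, had sums of 240 and 272 in WT and 288 and 52 in KO. KO replicate 1 was the highest library and KO replicate 2 the lowest, and KO replicate 2 was lowest at 6 of 6 Eda2r sites, with 3 to 12 normalized counts. The log2 fold change was -1.05, and 0.17 without KO replicate 2. Perp, which encodes a membrane protein of p53-dependent apoptosis, had 213 and 162 in WT and 124 and 138 in KO (-0.50, 95% interval -1.07 to 0.07). Ddit4, an inhibitor of mTORC1 signalling, had 117 and 66 in WT and 114 and 125 in KO (0.44, or 0.03 without WT replicate 2 and 0.85 without WT replicate 1). Fas, a death receptor, had 214 and 226 in WT and 296 and 252 in KO (0.31, 95% interval -0.12 to 0.74).

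At the level of sites, 1 of the 182 sites of these 36 genes was called, against 0.302% of all sites called lower in KO. This site of Eda2r (chrX:97376330-97376756) had 64 and 57 in WT and 25 and 11 in KO, a log2 fold change of -1.80 (limma unadjusted p = 0.00993, adjusted p = 1). The call was lost when either WT library or KO replicate 2 was left out. Without WT replicate 1 the log2 fold change was -1.72 (limma unadjusted p of 0.101), without WT replicate 2 -1.88 (0.0832) and without KO replicate 2 -1.24 (0.0275). Over all sites, the number called was 71, 36 and 612 in these fits, against 307. An unadjusted p under 0.05 was found at 4 of the 182 sites, against 3.13% of all sites. Besides the Eda2r site, the other 3 were higher in KO. They were a site of Gadd45a, with 447 and 433 in WT and 532 and 550 in KO, a site of Fdxr, with 485 and 460 against 569 and 590, and a weak site of Ppm1d, with 11 and 6 against 57 and 20. In both KO libraries together, 33 of the 182 sites were above the WT values (18.1%, against 14.6% of all sites and 19.6% at higher signal) and 20 below (11.0%, against 14.3% and 10.2%).

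**Figure D4:**
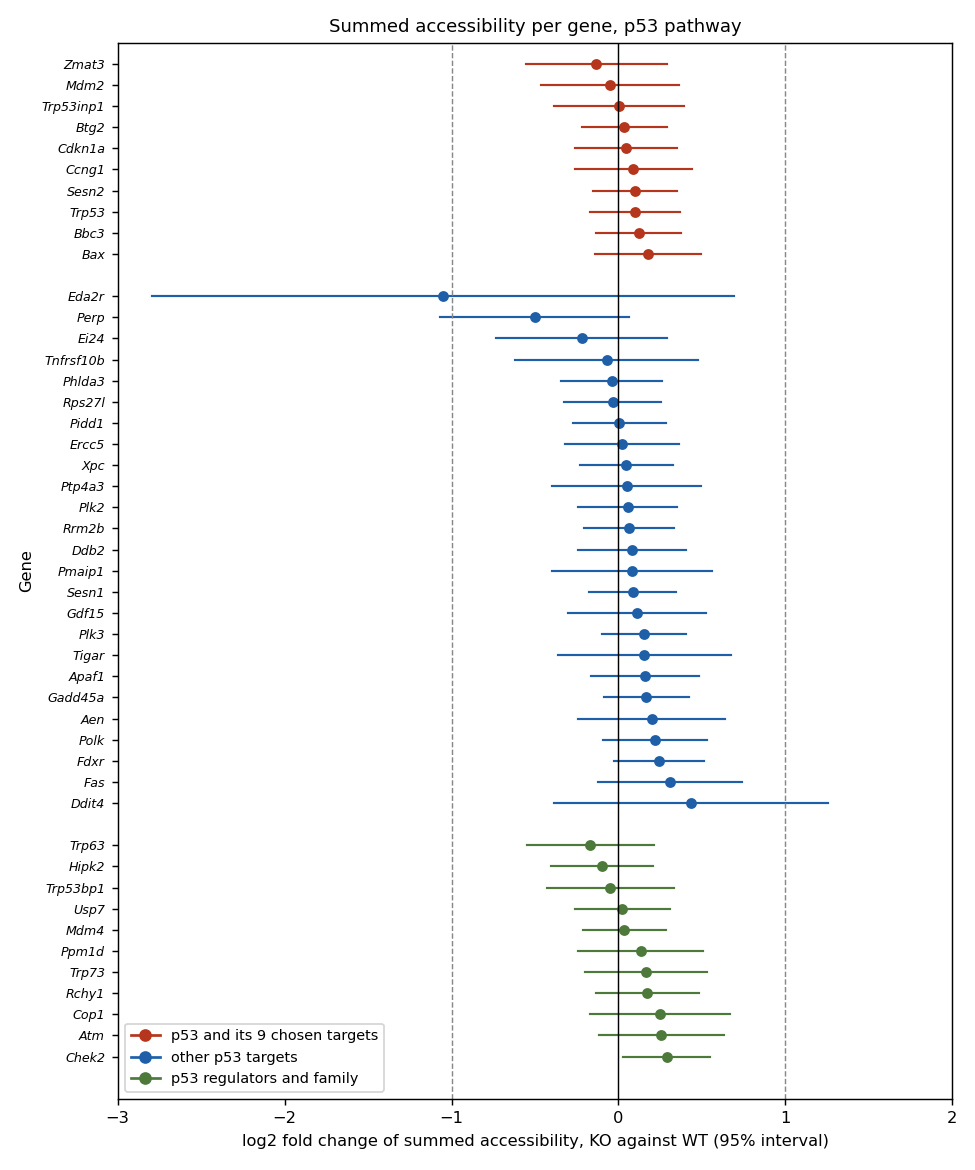
Log2 fold change of the summed accessibility per gene, KO against WT, with the 95% interval from limma, for Trp53 and its 9 targets (red), 25 other targets (blue) and 11 regulators and relatives (green). The 10 p53 genes lie between -0.13 and 0.18, and Eda2r has the lowest value and the widest interval.

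The study defines domains of lower accessibility in cells without HAT1 by the mean log2 fold change over 25 consecutive sites, with a cutoff of -0.58. That rule was set on primary MEFs and also joins regions across gaps, while here only the window mean was taken, in the immortalized lines. Windows of 25 sites were centred on the strongest promoter site of each p53 gene. None of the 10 was under the cutoff. Of all 81829 windows, 2799 (3.42%) were, so 0 of 10 was likely for most choices of 10 windows. The means ran from -0.17 at Trp53inp1 to 0.27 at Bbc3. Cdkn1a had -0.15, Mdm2 -0.03, Bax -0.01, Btg2 0.03, Trp53 0.05, Zmat3 0.11 and Sesn2 0.18. Around Ccng1 the mean of 0.10 joined unlike lines, since KO replicate 1 was at -0.29 and KO replicate 2 at 0.50 against the WT mean. Around Bbc3 both KO libraries were alike, with 0.26 and 0.28, beside a difference of 0.12 between the WT libraries.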

How the data were processed

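ATAC-Seq libraries from 2 HAT1+/+ and 2 HAT1-/- immortalized MEF lines were analysed. Per the labels and the study's methods, the authors used BWA 0.7.12 to align their paired reads to mm10, MACS2 2.1.0 for peaks and DESeq2 to compare genotypes. Read filtering and the Tn5 offset are not given in the sources used here. The deposited table holds 1 score per site and library, the authors' scaled read count rounded to a whole number. It also holds fold changes and p-values of the authors' comparison, which were not used.

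As the values are not raw counts, no count test was used. limma 3.58.1 (R 4.3.3) with an intensity trend was fitted to log2(value + 1) over all 82325 sites, without a filter, and to sums per gene over 17798 genes, with Benjamini-Hochberg adjustment over each. Fold changes on this scale understate the change of low sites. Tests were two-sided. The fits were tested on simulated data. The genes, lists and thresholds were chosen with earlier results of these data known. Promoter sites lay within 3 kb of a transcript start. Named were each gene's strongest promoter site, sites with a motif match, the largest change among sites of higher signal and called sites, and for the wider pathway the 2 largest changes each way. Sites named in addition, the comparison with differences within a genotype and the motif search over whole loci were chosen after the data were seen.

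Sequences came from RefSeq GRCm38.p6, gene models from GENCODE on the same assembly (mm10). Replicate numbers follow the order of deposition and only name libraries, while the names of 1 WT and 1 KO line share a number of unstated meaning. Separate lines are the replicates. The intervals are for the mean difference, with a variance that limma partly borrows from other sites or genes of like signal. They do not give the spread of single lines. Depth is approximate, since it was read from the spacing of low values up to 100. Alternatives were other pseudocounts, scalings, signal filters, variance models, locus and window sizes, and leaving out each library. Python 3.11.15 was used.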

Additional observations from a re-analysis of the deposited data

How the results depend on the processing

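The count of called sites among the 39 remained 0 in each direction under pseudocount 8, the higher-signal filter, equal totals, quantile normalization, no intensity trend, an adjusted p under 0.05, a 10 kb rule (27 sites), start sites of any transcript (45 sites) and with each library left out (0 to 0). With all libraries kept, at most 537 of all 82325 sites were called (no intensity trend), and 0 at an adjusted p under 0.05. With so few called, a 0 was likely for most groups of 39 sites and is no trait of these. Sites lower in both KO libraries numbered 8 under quantile normalization, and sites higher in both numbered 3 under equal totals and 3 under quantile normalization. The median of all sites moved from 0.01 to -0.06 under equal totals, to -0.00 under quantile normalization and to 0.06 at higher signal. Sites with a motif match numbered 4 with at most 2 mismatches and 3 with at most 1. Of the 182 sites of other pathway genes, 0 were called under quantile normalization, 0 at higher signal and 0 without the trend, and 0 to 2 with 1 library left out. The Eda2r site had -1.76 (limma unadjusted p of 0.0102) under quantile normalization and -1.80 (0.0156) without the trend, where 323 and 537 of all sites were called, and it is below the higher-signal limit, where 115 were. The cause of these changes was not tested.

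Directions of some small fold changes turned under other settings. Under quantile normalization the promoter sites of Cdkn1a (-0.067), Ccng1 (-0.055), Sesn2 (-0.12), Trp53inp1 (-0.087) and Btg2 (-0.044) and the sums of Cdkn1a (-0.048) and Btg2 (-0.095) were below 0. Under equal totals this held for the promoter sites of Sesn2 (-0.0007) and Trp53inp1 (-0.051) and the sums of Cdkn1a (-0.023), Trp53inp1 (-0.065) and Btg2 (-0.033), and within 10 kb for the sum of Bbc3 (-0.020). With 1 library left out, where the lone library is assumed to vary like the others, sites ran as follows. The ranges were -0.025 to 0.33 (Bax promoter), -0.0039 to 0.18 (Ccng1 site and sum), -0.12 to 0.28 (Cdkn1a distal), -0.25 to 0.052 (Cdkn1a UTR) and -0.031 to 0.19 (Cdkn1a promoter). Those of Mdm2 were -0.68 to 0.12 (UTR) and -0.28 to 0.23 (promoter), and that of the Trp53inp1 promoter -0.10 to 0.14. Sums ran from -0.075 to 0.17 (Cdkn1a), -0.27 to 0.17 (Mdm2), -0.10 to 0.11 (Trp53inp1) and -2.27 to 0.17 (Eda2r). No value of the named sites of the p53 genes or of the sums of the 10 genes reached an unadjusted p under 0.01 in any of these. Of 60 window means under other settings with all libraries kept, 15 moved by more than the spread between lines, and their lowest was -0.36, above the cutoff. With 1 library left out they ran from -0.29 to 0.50. No paired analysis was possible because the genotypes share only 1 line number. The line names of WT replicate 1 and KO replicate 2 begin with the same number, whose meaning the labels do not give, and those of the others share none.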
